A study of Homo sapiens with 6 samples.

Results

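DEAD and DEAH box helicases are enzymes that use ATP to unwind short RNA duplexes and to strip proteins from RNA. They take their names from a conserved sequence motif, and nearly every step in the life of an RNA, from the assembly of ribosomes in the nucleolus to splicing, nuclear export, translation and decay, depends on 1 or more of them. DEAD box members (DDX) mostly pry duplexes open locally, whereas DEAH box members (DHX) mostly translocate along a strand. The genes described here are those whose symbol in the deposited table is DDX with a number and at most 1 letter, or DHX with a number, leaving out the Y-linked DDX3Y: 55 of the 61806 genes listed, with 39 DDX and 16 DHX genes. The rule uses names alone and no measured value.

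RNA came from A549 cells, a human lung adenocarcinoma line labelled as wild type, that had been seeded for 24 h and then kept for 24 h with either the solvent DMSO (3 libraries) or Japoflavone B (3 libraries). The title describes Japoflavone B as a PARP1 inhibitor, and the labels give a dose of 40 without a unit. The question was which mRNAs change when the compound brings about pyroptosis and apoptosis, forms of programmed cell death. Separate cultures are not stated for the libraries of a group, so the spread behind each p-value may be technical.

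The libraries held 15298531 to 21744407 gene counts. Genes of the mitochondrial chromosome took 3.97% to 4.70% of counts after DMSO and 8.33% to 8.58% after Japoflavone B. Of 12 markers of A549 or lung epithelium, 8 reached a mean of 1 FPKM (fragments scaled by exonic length and by the library's gene counts) in a group. EPCAM (means of 0.91 FPKM after DMSO and 0.67 after Japoflavone B) and NAPSA (0.27 and 0.23) did not. The alveolar markers NKX2-1 and SFTPB were at or near 0. The summed FPKM of these markers was 5696 to 6087 after DMSO and 1827 to 1888 after Japoflavone B. The enzyme genes ALDH1A1 (means of 2973 and 626 FPKM) and AKR1B10 (1589 and 622) made up most of that sum. The markers differed in how far they fell: KRT18 had means of 464 and 130 FPKM, and KRT7 of 515 and 360. Of 10 markers of blood, endothelial and stromal cells, 3 had no count and 1, the collagen gene COL1A1, reached 1 FPKM. Their summed FPKM was 4.68 to 5.12 after DMSO and 0.62 to 0.89 after Japoflavone B, and the part of these marker changes in the results below was not tested. All values are relative to the RNA sequenced, so that less of an RNA per cell and fewer cells that hold it cannot be told apart.

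As a family the helicases did not move in 1 direction. Of the 55 genes, 50 had enough counts to be tested, and 42 of them were called: 20 rose after Japoflavone B and 22 fell (quasi-likelihood test of edgeR, adjusted over all genes by Benjamini-Hochberg). Among all 16082 genes tested, 70% were called, 34.7% as higher and 35.4% as lower, against 84%, 40% and 44% of the tested helicases. At least 2-fold changes were fewer: 2 helicases rose and 6 fell by that much, or 8 of 50 in all, where 9.67% and 15% of all genes did, together 24.7%. The median size of the log2 fold change, regardless of sign, was 0.43 for the helicases and 0.53 for all genes tested. Their median signed log2 fold change was 0.01, beside -0.0038 for all genes, and it was -0.0878 with library totals alone. Limma on log2(TPM + 1) called 12 helicases higher and 24 lower. FPKM did not overlap between the groups for 38 of the 50 helicases, against a background of 71.6%.

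The helicases were then grouped by role, each gene in a single role. The roles came from general knowledge and were assigned with earlier results of these data known. The shares by role are therefore descriptions and not tests. Helicases of ribosome biogenesis were mostly higher (14 of 16 tested, 87.5%, against 34.7% of all genes). Of the larger remaining roles, 7 of 10 splicing helicases (70%) and 5 of 6 of translation and mRNA decay (83.3%) were lower, against 35.4% of all genes. In transcription and RNA processing 3 of 5 were lower (60%) and 1 higher (20%). Lower too were 2 of 2 genes of chromosome cohesion and 2 of 3 tested antiviral genes, roles too small to describe as groups. DDX genes had a median log2 fold change of 0.04, with 15 of 35 tested higher and 14 lower. DHX genes had a median of -0.21, with 5 of 15 higher and 8 lower. The sign of the DDX median depended on the scaling: it was -0.06 with library totals alone.

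**Figure D1:**
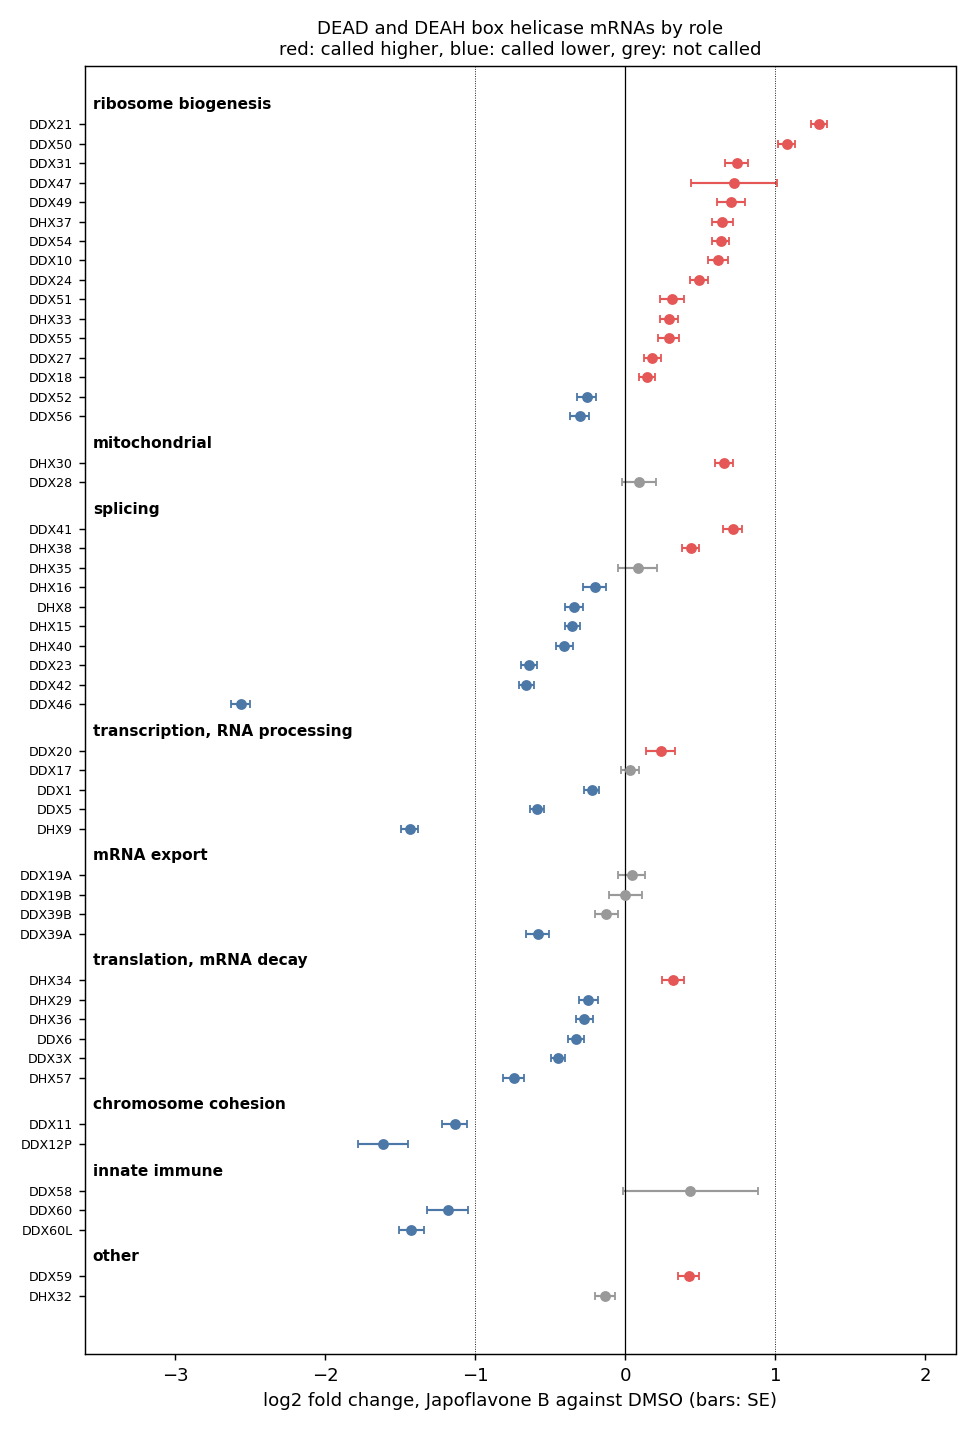
Log2 fold change (Japoflavone B against DMSO, trimmed-mean scaling; bars are SE) of the 50 tested helicase genes, grouped by role. Red points were called higher, blue points lower and grey points neither; 14 of the 16 ribosome biogenesis genes lie to the right of 0, and DDX46 lies farthest to the left at -2.56.

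Together the 55 genes took a slightly smaller share of all counts after Japoflavone B. The share was 0.605%, 0.590% and 0.577% in the DMSO libraries and 0.521%, 0.517% and 0.518% in the treated ones, so the groups did not overlap. The exact two-sided permutation test gave p = 0.1, the smallest that 3 against 3 libraries allow. Without the counts of mitochondrial genes in the denominator the shares were 0.618% ± 0.017 and 0.566% ± 0.0020 (SD, n = 3), a smaller difference that also left no overlap.

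Within that total the make-up changed more than the total did. Ribosome biogenesis helicases took 23.1%, 23.2% and 23.9% of the helicase counts in the DMSO libraries and 38.5%, 38.8% and 38.4% in the treated ones. This ratio within a library needs no scaling between libraries. The role thereby went from the second-largest of the 10 to the largest. Without DDX21 and DDX50 it went from 18.2% ± 0.60 to 26.9% ± 0.16 (SD, n = 3). The transcription and RNA processing role went from 27.2% ± 0.60 to 20.9% ± 0.22 of helicase counts, and splicing from 22.5% ± 0.24 to 17.1% ± 0.060. Translation and mRNA decay helicases went from 18.7% ± 0.36 to 15.3% ± 0.31. For each of these 4 roles the groups did not overlap, and the exact permutation p was 0.1.

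**Figure D2:**
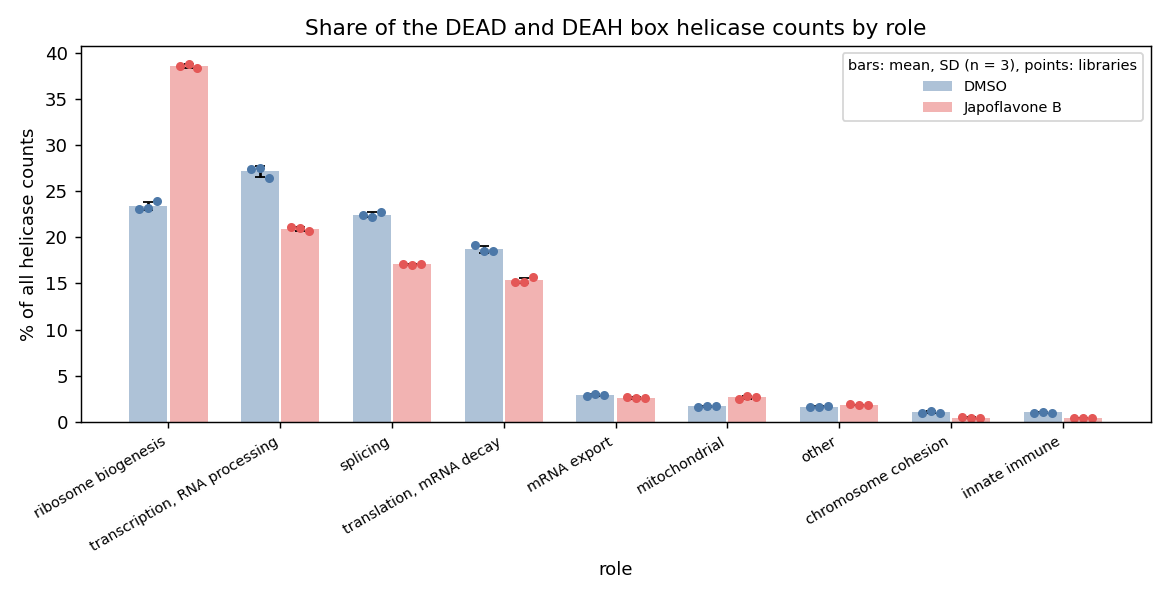
Percent of all helicase counts taken by each role in each library (points), with the mean (bar) and SD (n = 3). Ribosome biogenesis stands at 23.4% after DMSO and 38.6% after Japoflavone B, while the next 3 roles are lower in all 3 treated libraries. The germline role, at 0.006% or less in each library, is not drawn.

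The order of levels changed accordingly. Per length, the most abundant helicase mRNA after DMSO was DDX5 at 67.7 ± 2.0 FPKM, followed by DHX9 at 57.5 ± 3.0, DDX17 at 41.7 ± 5.0 and DDX3X at 37.7 ± 1.5. DDX17 and DDX3X did not differ beyond their spread. After Japoflavone B, DDX21 stood first at 73.3 ± 0.11 FPKM and DDX50 second at 56.0 ± 1.8. DDX5 at 41.9 ± 1.0 and DDX17 at 39.8 ± 0.57 FPKM came next, above DDX54 at 32.5 ± 0.77. DHX9 had gone from rank 2 to rank 10 among the 55, and DDX46 from rank 12 to rank 40.

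Helicases of ribosome biogenesis act in the nucleolus, where they remodel the precursor rRNA, release the small nucleolar RNAs that guide its modification, and let ribosomal proteins bind. All 16 were tested; 14 rose and 2 fell, a share of 87.5% higher against 34.7% of all genes, and the median log2 fold change was 0.55. Limma on log2(TPM + 1), another test on another unit, called 8 of them higher.

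DDX21 (ENSG00000165732, chromosome 10, 68956135 to 68985068, GRCh38) is a nucleolar helicase that couples rRNA transcription with rRNA processing. Its FPKM were 34.8, 30.5 and 31.1 in the DMSO libraries and 73.2, 73.5 and 73.3 in the treated ones. Every treated library was thus above every DMSO library, with little spread among the treated ones. The log2 fold change was 1.29 ± 0.05 (SE; edgeR adjusted p = 3.45e-18). Its paralog DDX50 (ENSG00000107625, chromosome 10, 68901286 to 68946847), also nucleolar, lies 9287 bases upstream on the same strand. DDX50 had 29.6, 27.1 and 28.8 FPKM after DMSO and 57.5, 56.6 and 53.9 after Japoflavone B, again without overlap, and rose by a log2 fold change of 1.08 ± 0.06 (edgeR adjusted p = 1.27e-15). These neighbours were the 2 helicases that rose at least 2-fold.

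Because these neighbours rose together, the DNA before their starts is shown, from RefSeq (GRCh38.p14). The capitals mark CCGGAAG, a core sequence bound by ETS family factors, found on the gene's own strand 60 bases before the first of 2 RefSeq starts of DDX21 and 48 bases before the start of DDX50. DDX21 is at chr10:68956020-68956169 and DDX50 at chr10:68901165-68901314, both on the plus strand.
DDX21: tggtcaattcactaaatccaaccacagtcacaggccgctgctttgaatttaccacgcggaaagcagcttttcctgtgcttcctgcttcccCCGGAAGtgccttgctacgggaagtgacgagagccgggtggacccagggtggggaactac
DDX50: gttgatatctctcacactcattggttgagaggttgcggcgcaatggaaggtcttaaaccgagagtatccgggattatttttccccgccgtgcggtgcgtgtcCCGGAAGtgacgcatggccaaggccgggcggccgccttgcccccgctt
The RefSeq promoter table held 49 of the 55 helicases, with 64 starts between them. Searched on both strands of the 250 bases before each start, CCGGAAG was present for 28.1% of the helicase starts and 8.52% of all 35116 starts in the table. It occurred before helicases that rose and before helicases that fell, DDX46 and DDX5 among the latter. The E-box CACGTG, which MYC and its relatives bind, was present for 14.1% of all helicase starts and for 6.34% of all starts. It was found for 3 of 15 starts of ribosome biogenesis helicases (DDX21, DDX31 and DDX54). Those 15 starts cover 12 of the 16 genes of that role. Of 10 splicing starts, 2 held it (DHX35 and DHX40). The other matches were before DDX5, DDX25, DHX32 and DHX34. Of the genes with a match, DDX5 and DHX40 fell. CCAAT was found for 43.8% of helicase starts against 32% of all, an NRF1-type palindrome for 3.12% against 1.03%, and a YY1-type site for 0% against 0.248%. The motifs were chosen with the results known, and a match of letters is a description of the sequence and no evidence of binding.

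Several other ribosome biogenesis helicases rose by 1.4-fold to 1.7-fold. DDX54 had 20.8 to 23.3 FPKM after DMSO and 32.0 to 33.4 after Japoflavone B (log2 fold change 0.63). DHX37, which acts late in small subunit assembly with its partner UTP14A, had 7.74 to 9.42 and 12.4 to 13.3 FPKM (0.65). DDX31 had 4.54 to 5.13 and 7.30 to 7.57 FPKM (0.74), and DDX49 had 6.46 to 8.89 and 10.9 to 12.6 (0.70). For these 4 genes the groups did not overlap. DDX10, a partner in 18S rRNA processing, and DDX24 rose by log2 fold changes of 0.62 and 0.49, also without overlap.

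The smaller rises were less firm. DDX51, DHX33 and DDX55 rose by log2 fold changes of 0.31, 0.29 and 0.29, with overlapping FPKM in DHX33. DHX33 shares 7914 bases of its span with C1QBP on the same strand, which had 15028 counts over the DMSO and 12666 over the treated libraries. DDX27 and DDX18 rose by 0.18 and 0.15, their FPKM overlapped between the groups, and both stood below 0 with limma on log2(TPM + 1). For DDX47 the log2 fold change was 0.72 ± 0.28 at a mean of only 0.36 and 0.55 FPKM. Of its 16666 bases, 16660 lie within the span of APOLD1 on the same strand (110 counts over the DMSO and 93 over the treated libraries), the groups overlapped, and 5 of the 13 alternatives that tested it ended the call. The 2 members that fell were DDX56, a factor of the large subunit, at -0.31, and DDX52 at -0.26.

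Of the mitochondrial helicases, DHX30, a DEAH box protein of mitochondrial RNA granules, rose. It had 10.9, 11.4 and 11.3 FPKM after DMSO and 15.4, 17.5 and 16.7 after Japoflavone B, a log2 fold change of 0.66 ± 0.06 (edgeR adjusted p = 1.00e-10). DDX28, which helps assemble the large mitochondrial ribosomal subunit, had 5.14, 5.18 and 5.25 FPKM against 5.40, 5.05 and 4.99. Its values overlapped, with a log2 fold change of 0.09 ± 0.11 (edgeR adjusted p = 0.479).

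Splicing helicases drive the spliceosome from one state to the next, and each acts at its own step. Of 10, 7 fell and 2 rose (70% and 20%, against 35.4% and 34.7% of all genes), with a median log2 fold change of -0.35. DDX46 (ENSG00000145833, chromosome 5, 134758771 to 134855133), the human counterpart of Prp5 that remodels the U2 particle at the branch site, had the lowest fold change of the 50 tested helicases. Its FPKM were 24.6, 22.2 and 22.3 after DMSO and 3.93, 3.49 and 3.45 after Japoflavone B. All 3 treated libraries were far below the DMSO libraries, and the log2 fold change was -2.56 ± 0.07 (5.92-fold lower; edgeR adjusted p = 7.92e-23). DDX46 shares 9454 bases of its span with C5orf24 on the same strand, which had 6491 counts over the DMSO and 5684 over the treated libraries.

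The other 6 splicing helicases that fell, from early and late steps, had smaller fold changes. DDX42, which also works at the U2 particle, had 24.8, 24.5 and 23.6 FPKM after DMSO and 14.6, 14.3 and 14.1 after Japoflavone B (log2 fold change -0.66 ± 0.05; edgeR adjusted p = 5.65e-12). DDX23, the Prp28 counterpart that exchanges U1 for U6 at the donor site, had 26.2 to 28.2 and 15.7 to 16.7 FPKM (-0.64). For both, the groups lay well apart. DHX40, grouped here with the splicing helicases, and DHX15, which takes spent spliceosomes apart, fell by 0.41 and 0.35 on the log2 scale. DHX8, which releases the spliced mRNA, and DHX16, the Prp2 counterpart, had log2 fold changes of -0.34 and -0.21. DHX16 was called with an adjusted p of 0.0202 and lost the call in 4 of 17 alternatives.

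DDX41 and DHX38 rose instead. DDX41, mutated in familial myeloid leukaemia and found in the late spliceosome, had 13.5 to 15.1 FPKM after DMSO and 21.2 to 22.8 after Japoflavone B (log2 fold change 0.72). DHX38, the Prp16 counterpart that acts between both catalytic steps, had 13.02 to 13.27 and 15.6 to 17.1 FPKM (0.43). DHX35 stood at 0.08 ± 0.13 (edgeR adjusted p = 0.588) with overlapping values.

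Among helicases of transcription and RNA processing, DHX9 changed most. DHX9 (RNA helicase A; ENSG00000135829, chromosome 1, 182839347 to 182887982) resolves R-loops and inverted-repeat duplexes and bridges transcription factors to RNA polymerase II. It had 60.8, 55.1 and 56.6 FPKM after DMSO and 19.7, 20.1 and 19.5 after Japoflavone B. The treated libraries agreed closely with each other and none reached the DMSO range; the log2 fold change was -1.44 ± 0.05 (2.71-fold lower; edgeR adjusted p = 4.13e-19).

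DDX5 and DDX17 are close paralogs that act as coactivators of transcription and as parts of the microRNA processing complex. DDX5 had 67.1, 69.9 and 66.0 FPKM after DMSO and 43.0, 41.7 and 41.0 after Japoflavone B, and fell by a log2 fold change of -0.59 ± 0.05 (edgeR adjusted p = 1.20e-11). DDX17 had 45.4, 43.8 and 36.03 FPKM after DMSO and 40.2, 39.1 and 40.0 after Japoflavone B. Its treated values lay inside the DMSO range, at a log2 fold change of 0.03 ± 0.06 (edgeR adjusted p = 0.655). DDX1, part of the tRNA ligase complex, fell by 0.22 on the log2 scale. DDX20 (Gemin3), a subunit of the SMN complex that assembles splicing particles, was called higher at 0.24 with overlapping FPKM, and 8 of 17 alternatives ended that call.

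The export helicases release mRNA from the nucleus. DDX39A, the paralog of the export factor DDX39B (UAP56), had 13.1, 15.3 and 15.9 FPKM after DMSO and 9.04, 8.79 and 9.61 after Japoflavone B, a log2 fold change of -0.58 ± 0.08 (edgeR adjusted p = 1.22e-07). DDX39B had 10.1, 10.7 and 8.24 FPKM after DMSO and 9.19, 7.56 and 8.07 after Japoflavone B. Those values overlapped, and its log2 fold change of -0.13 ± 0.08 did not pass (edgeR adjusted p = 0.155), though 3 of 17 alternatives called it lower. DDX19A and DDX19B, neighbouring genes on chromosome 16 that act at the cytoplasmic face of the nuclear pore, stood at 0.04 ± 0.09 and 0.00 ± 0.11 (edgeR adjusted p = 0.684 and 0.990). DDX19A had 3.55, 3.28 and 3.25 FPKM after DMSO and 3.52, 3.24 and 2.90 after Japoflavone B. For DDX19B the values were 4.10, 3.92 and 4.80 against 3.47, 4.47 and 3.98. Neither gene separated the groups. All 12230 bases of DDX39B lie within the span of ATP6V1G2-DDX39B on the same strand, which had 0 counts in both groups. Another listed gene with 0 counts covers 25722 of the 26523 bases of DDX19A and 36112 of the 45643 bases of DDX19B, also on the same strand. How reads shared between genes were counted is not given in the sources used here, so the levels of DDX39B, DDX19A and DDX19B are uncertain.

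Of 6 helicases of translation and mRNA decay, 5 fell and 1 rose (83.3% and 16.7%, against 35.4% and 34.7% of all genes), with a median log2 fold change of -0.30. DDX3X, which helps initiation on mRNAs with structured leaders, had 39.4, 37.4 and 36.4 FPKM after DMSO and 25.9, 25.2 and 26.1 after Japoflavone B (log2 fold change -0.45 ± 0.05; edgeR adjusted p = 3.40e-09). DHX57 had 9.26, 8.44 and 8.39 FPKM after DMSO and 4.69, 4.78 and 5.04 after Japoflavone B (-0.75 ± 0.07; edgeR adjusted p = 1.18e-10). Its relative DHX36, which unwinds G-quadruplexes, had 11.8, 11.3 and 10.3 against 8.42, 8.53 and 8.79 FPKM (-0.27 ± 0.06; edgeR adjusted p = 1.49e-04). In all 3 genes the groups stood apart. DDX6, a core protein of P-bodies that represses translation, and DHX29, which helps scanning ribosomes through structure, fell by 0.33 and 0.25 on the log2 scale. DHX34, a factor of nonsense-mediated decay, rose by 0.32, a call that limma on log2(TPM + 1) did not make (adjusted p = 0.178).

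Both genes of the chromosome cohesion group fell. DDX11 (ENSG00000013573, chromosome 12, 31073860 to 31104799) is a DNA helicase of replication forks and sister chromatid cohesion and thus, despite its name, not mainly an RNA enzyme. It had 5.52, 6.50 and 5.46 FPKM after DMSO and 2.66, 2.35 and 2.39 after Japoflavone B (log2 fold change -1.14 ± 0.08; edgeR adjusted p = 1.59e-12). DDX12P (ENSG00000214826, chromosome 12, 9418673 to 9448229), a pseudogene copy of DDX11, had 3.65, 4.85 and 4.44 against 1.34, 0.93 and 1.62 FPKM (-1.62 ± 0.17; edgeR adjusted p = 1.39e-09). The groups did not overlap in either gene, but the copies are so alike that reads could have been split between them, and the values of both are uncertain.

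Antiviral helicases sense or act against foreign RNA, and most are induced by interferon. DDX60 (ENSG00000137628, chromosome 4, 168216291 to 168318883) and its neighbour DDX60L (ENSG00000181381, 168356735 to 168537786), both on the minus strand, fell. DDX60L had 3.70, 4.06 and 3.59 FPKM after DMSO and 1.32, 1.22 and 1.39 after Japoflavone B (log2 fold change -1.43 ± 0.08; edgeR adjusted p = 1.06e-14). At a lower level, DDX60 had 0.88, 0.70 and 0.74 against 0.29, 0.30 and 0.35 FPKM (-1.19 ± 0.14; edgeR adjusted p = 1.65e-08). Neither gene overlapped between the groups. DDX60L shares 40735 bases of its span with PALLD on the opposite strand, which had 17074 and 15732 counts.

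The 120 bases before the RefSeq starts of this pair (GRCh38.p14) are shown because both hold the same kind of element. Capitals mark GAAA, any pair of bases and GAAA again, the core of an interferon-stimulated response element, present on the gene's strand 88 and 53 bases before the start of DDX60 and 80 and 50 bases before that of DDX60L. DDX60 is at chr4:168318753-168318872 and DDX60L at chr4:168480493-168480612, both on the minus strand.
DDX60: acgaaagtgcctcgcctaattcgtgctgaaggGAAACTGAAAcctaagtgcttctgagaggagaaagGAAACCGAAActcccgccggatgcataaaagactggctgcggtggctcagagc
DDX60L: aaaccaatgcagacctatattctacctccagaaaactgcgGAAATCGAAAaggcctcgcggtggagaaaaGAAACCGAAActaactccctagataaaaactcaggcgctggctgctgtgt
In the 250 bases before a start, on either strand, this element was present for 3 of the 64 helicase starts, those of DDX60, DDX60L and the splicing helicase DHX15, and for 3.02% of all starts. The gene spans in the deposited table reach further upstream than these starts.

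The remaining antiviral sensors had too few counts to follow. DDX58, the gene of RIG-I, had 0.04 to 0.08 FPKM in every library and a log2 fold change of 0.43 ± 0.45 (edgeR adjusted p = 0.40). Of its 70907 bases, 70886 lie within the span of another listed gene on the same strand. That gene had 6 counts over the DMSO and 18 over the treated libraries. Whether reads of DDX58 went uncounted through this overlap was not tested. Its low FPKM may therefore not show its mRNA level. DHX58 (LGP2) had 26 counts summed over DMSO and 3 summed over Japoflavone B and was not tested. The germline helicases DDX4, DDX43 and DDX53 and the testis helicase DDX25 were also left untested: DDX53 had no count, DDX4 1 count per group, DDX25 5 counts per group, and DDX43 8 counts after DMSO and 0 after Japoflavone B.

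DDX59 and DHX32, which were put in no role, are the last members. DDX59 had 7.27, 7.24 and 7.16 FPKM after DMSO and 9.29, 8.72 and 9.02 after Japoflavone B and rose by a log2 fold change of 0.42 ± 0.07 (edgeR adjusted p = 9.85e-06). DHX32 had 17.0, 15.9 and 17.9 against 14.7, 14.3 and 14.1 FPKM. Its FPKM did not overlap, yet on the trimmed-mean scale its log2 fold change of -0.14 ± 0.07 did not pass (edgeR adjusted p = 0.0634), and 7 of 17 alternatives called it lower.

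**Figure D3:**
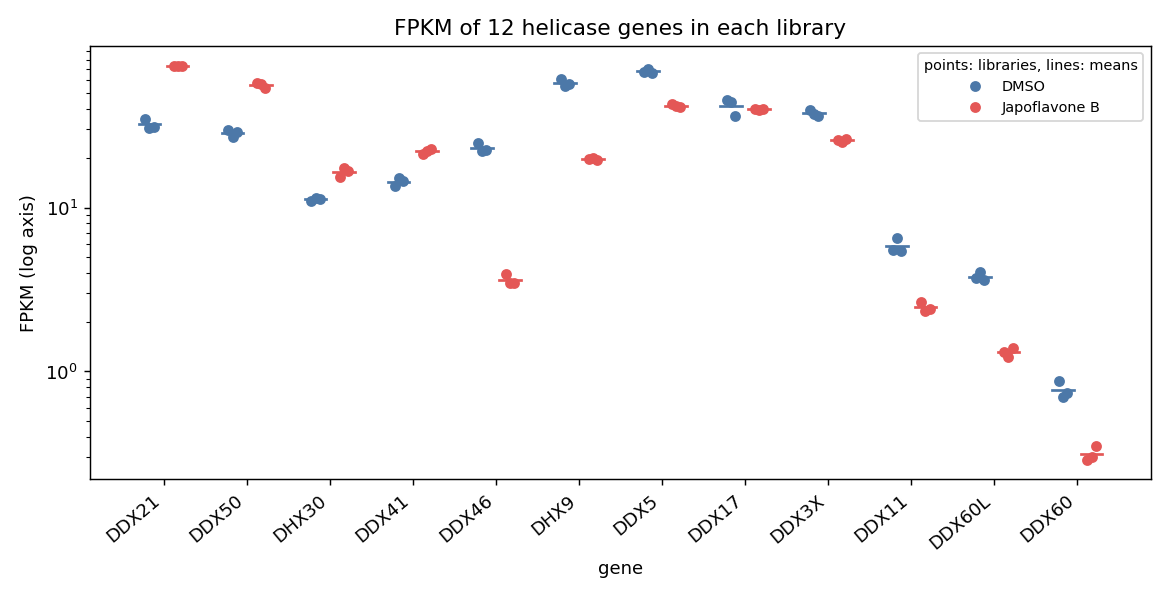
FPKM (log axis) of 12 helicase genes in each of the 6 libraries (points) with group means (lines). DDX21, DDX50, DHX30 and DDX41 are higher in all 3 treated libraries, DDX17 overlaps between the groups, and DDX46 has means of 23.1 and 3.62 FPKM.

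Related genes were compared within each library, as the log2 ratio of their counts per kilobase, which needs no scaling between libraries. For DDX5 over DDX17 the ratio was 0.56, 0.68 and 0.87 in the DMSO libraries and 0.09, 0.09 and 0.04 in the treated ones, a change of -0.63. DDX5 was thus 1.63 times DDX17 per length after DMSO and 1.05 times after Japoflavone B. For DDX39A over DDX39B the ratio went from 0.61 ± 0.30 to 0.15 ± 0.15 (SD, n = 3), and for DHX36 over DHX57 it went from 0.35 ± 0.060 to 0.83 ± 0.022. The DDX21 over DDX50 ratio went from 0.17 ± 0.061 to 0.39 ± 0.048. In these 4 pairs the groups did not overlap. The other 3 pairs did overlap: DDX19A over DDX19B (-0.34 ± 0.19 and -0.30 ± 0.28), DDX60 over DDX60L (-2.30 ± 0.23 and -2.05 ± 0.11) and DDX11 over DDX12P (0.44 ± 0.15 and 0.97 ± 0.39). The exact two-sided permutation p was 0.1 for each of the first 4 pairs, the smallest possible, 0.8 for the DDX19 pair and 0.2 for the others. Adjusted over the 7 pairs the lowest value was 0.175, so no pair could pass. The same-strand overlaps of DDX39B, DDX19A and DDX19B given above leave the ratios that use these genes uncertain.

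**Figure D4:**
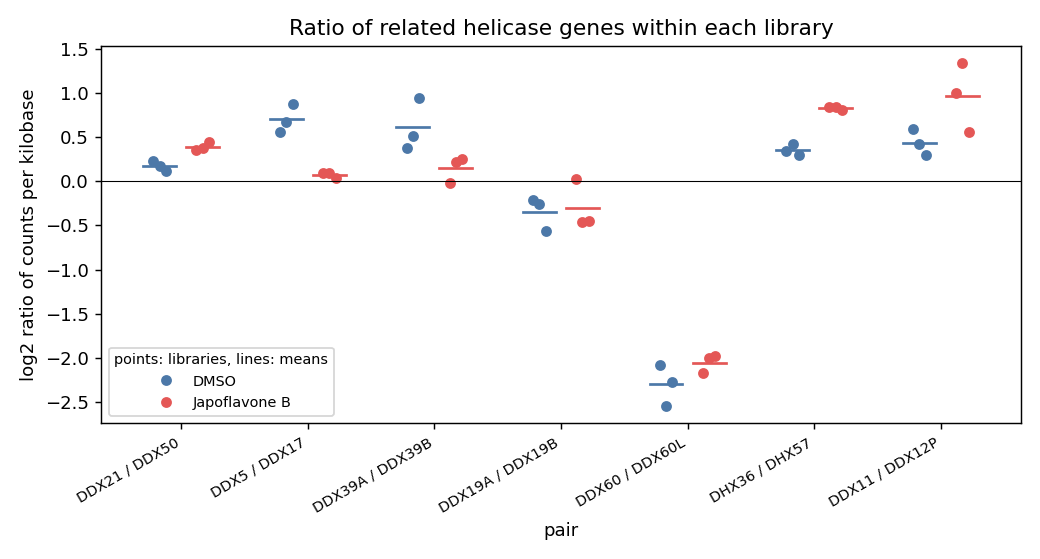
Log2 ratio of counts per kilobase within each library (points; lines are group means) for 7 pairs of related helicases. The DDX5 over DDX17 ratio has a mean of 0.70 after DMSO and 0.07 after Japoflavone B, while the DDX60 over DDX60L and DDX19A over DDX19B ratios overlap between the groups.

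The helicases were also grouped by the Gene Ontology terms that the deposited table assigns. Among all genes tested 34.7% rose and 35.4% fell. Of the 22 tested helicases with the term nucleolus, 12 rose (54.5%) and 8 fell (36.4%, near the share of all genes), with a median log2 fold change of 0.16. Of the 28 without it 8 rose (28.6%) and 14 fell (50%), with a median of -0.17. Among 9 with the term rRNA processing, 7 rose (77.8%) and 1 fell (11.1%), with a median of 0.62. Of 11 with a spliceosome term, 2 rose (18.2%) and 6 fell (54.5%), with a median of -0.21. The terms overlap in part with the roles used above, so they are a second labelling of the same values.

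Other genes that work with these helicases are given for comparison. G-patch proteins switch on DEAH box helicases such as DHX15 and DHX16. Of 22 tested, 15 rose and 2 fell, a share of 68.2% higher against 34.7% of all genes, with a median log2 fold change of 0.29; limma on log2(TPM + 1) called 9 higher and 6 lower. NKRF, a nucleolar activator of DHX15, was 2.03-fold higher, PINX1 2.26-fold, GPATCH2L 2.67-fold and CHERP 1.6-fold.

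Of 22 partners of DEAD box helicases, 10 rose (45.5%) and 8 fell (36.4%), against 34.7% and 35.4% of all genes (median 0.04; 4 and 11 with limma on log2(TPM + 1)). The eIF4A activator EIF4B was 1.46-fold higher. EIF4G2, a scaffold for eIF4A, was 2.46-fold lower, GEMIN4, the partner of DDX20, 1.98-fold lower, and ALYREF, the partner of DDX39B, 1.89-fold lower. Among 19 RNA helicases of the same superfamily with other names, 9 rose (47.4%) and 8 fell (42.1%; median -0.01; 4 and 10 with limma on log2(TPM + 1)). EIF4A2, a DEAD box translation factor, was 2.16-fold higher, whereas its paralogs EIF4A1 and EIF4A3 were 1.62-fold and 1.37-fold lower. EIF4A1 had means of only 2.28 FPKM after DMSO and 1.32 after Japoflavone B, against 43.4 and 87.3 for EIF4A2. Whether reads of EIF4A1 went uncounted through overlapping genes was not tested, so its level and change are uncertain. The meiotic and m6A-binding helicase YTHDC2 was 2.69-fold lower, the antiviral MOV10 2.49-fold lower and the exosome helicase MTREX 1.57-fold lower.

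Overlapping and copied genes limit some of these values. Of the 55 helicases, 42 share part of their span with another listed gene, 36 of them with a gene on the opposite strand, and whether counting used strand is not given in the sources used here. Beside DDX12P, the table lists 23 pseudogenes named after a helicase, none with more than 45 counts over a group's 3 libraries. DDX12P, a pseudogene kept among the 55, had 735 counts over the DMSO and 209 over the treated libraries.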

How the data were processed

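Per the submitters' processing notes, the tools were HISAT2 2.0.1, HTSeq 0.6.1, cutadapt 1.9.1 and DESeq2 and the build was GRCh38; roles, the annotation release and the strand setting are not given in the sources used here. The deposited table holds raw counts per gene and FPKM that the authors made, rounded to 2 decimals; FPKM recomputed from counts, exonic size and column total differed by at most 0.005. The exonic sizes, in bases, are used as deposited. Poly(A) RNA was selected with oligo(dT) beads, per the labels.

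Counts were fitted in R 4.3.3 with edgeR 4.0.16 (filterByExpr, minimum count 10, minimum total 15; trimmed-mean factors; quasi-likelihood; threshold 0.05 after Benjamini-Hochberg adjustment over 16082 genes). Alternatives used limma 3.58.1 and DESeq2 1.42.0. The fit was tested on simulated data in which few genes changed, as many up as down. It called 78.4% of genes changed 1.5-fold, 83% of those changed 2-fold and 0.0458% of unchanged genes. In the real data 70% of genes were called, so the simulation does not show how the fit behaves with changes that broad.

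The helicases, roles and lists were chosen with earlier results of these data known. Per-library values and full statistics are given for helicases changed at least 2-fold, the 2 of lowest adjusted p in each role, pairs, and the 3 of highest FPKM; up to 4 genes are named per related list by adjusted p. Every helicase is named; other genes named outside this rule were chosen after their values were seen. Of the listed related symbols, 3 are older or newer names without a row.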

Additional observations from a re-analysis of the deposited data

How the results depend on the processing

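Of the 50 tested helicases, 39 kept their call in each of the 17 alternatives that tested them, although DDX17, DDX19A, DDX19B, DDX28 and DHX35, called in none, took both signs; the calls of DDX18, DDX20, DDX27, DDX39B, DDX47, DDX51, DDX55, DHX16, DHX32, DHX33 and DHX34 changed in at least 1. Replicate numbers did not pair the libraries (correlations of deviations 0.013, -0.004 and -0.045), and the fit with the replicate number as a block called 20 higher and 22 lower, as without it. With limma on log2(TPM + 1), which moved the median of all genes by -0.21, 12 helicases were called higher (9 DDX, 3 DHX), DDX18 stood at -0.0695 and DDX27 at -0.037, and the medians were -0.27 for all helicases, -0.18 for DDX and -0.41 for DHX. For all, DDX and DHX helicases the medians were -0.0878, -0.0603 and -0.31 with library totals alone (shift of all genes -0.10), -0.14, -0.0617 and -0.28 with limma on log2(FPKM + 1), and -0.16, -0.0629 and -0.31 with limma on log2(FPKM + 0.1). The DDX median was also -0.0105 with a minimum of 2 FPKM and 0.0741 with DESeq2, and 0.0443 to 0.12 when each library was left out in turn. The DDX19A over DDX19B change of 0.0448 ranged from -0.12 to 0.13 when each library was left out, and was -0.0649 without DMSO replicate 3 and -0.12 without Japoflavone B replicate 1. The change in the helicase share of counts was -0.0722 percentage points and -0.0515 without mitochondrial genes in the total. The difference in the ribosome biogenesis share, 15.2 percentage points, was 8.67 without DDX21 and DDX50 (an alternative chosen after seeing the data, as was leaving out mitochondrial genes from the fit, which changed no call of a helicase). Apart from what the settings change by construction, the cause of these shifts was not tested. DDX58, DDX47 and the 5 untested genes had few or no counts, and differences in them were not detectable or not firm at these counts. DDX58 and DDX47 lie almost wholly within other genes on the same strand, and whether reads went uncounted there was not tested.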
